A study of Homo sapiens with 12 samples.

Results

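BNIP3, BNIP3L (also called NIX), the pseudogene BNIP3P1, FUNDC1, PINK1 and FAM162A were followed through a time course of reduced oxygen in HCT116, an established human colorectal cancer cell line. They were taken by gene name from the deposited transcript table, with every transcript model that carries the name, whatever its relation to the annotation. The 6 genes are 6 of 56537 gene names, and their 26 transcript models are 26 of 293768. Cells were kept in 21% O2 (0 h) or moved to 1% O2 for 1, 2 or 24 h, with 3 biological replicates at each of the 4 time points and 12 poly(A) libraries in all. All cells were grown in RPMI with serum and plated a day before hypoxia began. Whether the 0 h and 24 h samples had spent equal time on the plate is not given in the sources used here, so a longer culture and a lack of oxygen cannot be told apart at 24 h.

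Mitophagy is the removal of damaged or surplus mitochondria by autophagy. In one route, receptor proteins in the outer mitochondrial membrane bind LC3 and GABARAP proteins on the growing autophagosome directly, and BNIP3, BNIP3L and FUNDC1 are receptors of this kind. In the other, the kinase PINK1 accumulates on depolarised mitochondria, phosphorylates ubiquitin and activates the ubiquitin ligase Parkin, and adaptor proteins then link the ubiquitin chains to LC3. BNIP3 and BNIP3L are textbook targets of hypoxia-inducible factor 1 (HIF-1). FAM162A encodes a hypoxia-responsive mitochondrial protein linked to cell death and is not a classical mitophagy receptor, BNIP3P1 is a processed pseudogene, and PINK1 is a kinase rather than a receptor, so the group is a mixed set by function.

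On GRCh37, BNIP3 lies at chr10:133781188-133795471 on the minus strand and BNIP3P1 at chr14:28733596-28735180 on the plus strand. FUNDC1 lies at chrX:44382885-44402105 on the minus strand, PINK1 at chr1:20959951-20978004 on the plus strand and FAM162A at chr3:122103008-122131181 on the plus strand. Promoters of 3 of the 6 genes were matched in the RefSeq table (GRCh38.p14), those of BNIP3, FAM162A and FUNDC1. The 250 bases before each start site are shown for these 3 genes. BNIP3L, BNIP3P1 and PINK1, which rose at 24 h as BNIP3 and FAM162A did, had no matched promoter, and a link between matches and change was not tested. Capitals mark ACGTG or GCGTG, the letters of the core that HIF-1 recognises, on either strand, and neighbouring matches may overlap.
BNIP3 (chr10:131981924-131982173, minus strand): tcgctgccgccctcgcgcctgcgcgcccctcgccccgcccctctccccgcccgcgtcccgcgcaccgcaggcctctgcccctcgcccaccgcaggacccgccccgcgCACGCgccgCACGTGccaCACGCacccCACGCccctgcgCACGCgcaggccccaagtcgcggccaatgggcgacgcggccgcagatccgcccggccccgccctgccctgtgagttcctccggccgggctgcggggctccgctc
FAM162A (chr3:122383932-122384181, plus strand): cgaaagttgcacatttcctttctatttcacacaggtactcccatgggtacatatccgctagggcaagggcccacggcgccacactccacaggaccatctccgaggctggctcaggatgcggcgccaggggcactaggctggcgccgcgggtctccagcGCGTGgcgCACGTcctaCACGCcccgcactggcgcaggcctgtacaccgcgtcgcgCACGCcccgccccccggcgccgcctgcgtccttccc
FUNDC1 (chrX:44542860-44543109, minus strand): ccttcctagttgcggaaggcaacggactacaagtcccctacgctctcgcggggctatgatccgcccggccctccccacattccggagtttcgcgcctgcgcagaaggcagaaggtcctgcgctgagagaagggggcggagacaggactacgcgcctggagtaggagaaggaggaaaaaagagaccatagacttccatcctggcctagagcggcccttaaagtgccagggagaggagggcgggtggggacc
The BNIP3 window held 6 matches between 143 and 104 bases before the start, 2 of ACGTG and 4 of GCGTG. The 2 of ACGTG are 1 stretch, CACGTG, read on both strands. The FAM162A window held 4 matches between 92 and 36 bases before the start, 1 of ACGTG and 3 of GCGTG. The FUNDC1 window held 0 matches. At least 1 match was present in 43.2% of 35116 promoter windows of this length, at least 4 in 3.22% and at least 6 in 0.646%. A match describes the letters of the window and is not a measured binding site.

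BNIP3P1 is a copy of the BNIP3 messenger RNA at another place in the genome, so its reads and those of BNIP3 can be hard to separate. The annotated transcripts of the pair (GENCODE 44 on GRCh37) were identical at 1506 of 1541 aligned positions (97.7%). The stretch that aligned with the BNIP3 coding sequence differed at 11 of 585 bases. The first 100 bases of that stretch are shown because they illustrate how few positions tell the copies apart, with the 4 that differ in capitals.
BNIP3: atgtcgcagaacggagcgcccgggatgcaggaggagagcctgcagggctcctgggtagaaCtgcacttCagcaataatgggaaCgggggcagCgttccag
BNIP3P1: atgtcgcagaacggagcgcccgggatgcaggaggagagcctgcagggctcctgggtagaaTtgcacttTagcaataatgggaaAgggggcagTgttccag
Of 1486 windows of 100 bases in the BNIP3P1 transcript, 184 (12.4%) were found without a mismatch in the BNIP3 transcript. How the authors' estimate divided reads between the copies is not stated, and the BNIP3P1 values are therefore uncertain.

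The deposited unit is FPKM, the fragments assigned to a transcript per kilobase of its length and per 1000000 fragments mapped, as Cufflinks estimates it, and it was summed over the transcripts of each gene name. The limma test ran on log2(FPKM + 0.5) for the 17091 gene names that exceeded 0.5 FPKM in at least 3 libraries, with Benjamini-Hochberg adjustment over all of them. Calls required a log2 fold change beyond 1 in either direction together with an adjusted p below 0.01. All 6 members were tested. The files hold no read counts, so the depth behind each value cannot be read from them and the spread between 3 replicates is the measure of precision. In bulk RNA, fewer cells expressing a gene and less RNA per cell cannot be told apart. Pearson's r across genes was 0.965 to 0.988 between libraries of one time point and 0.906 to 0.936 between 0 h and 24 h libraries (genes are not independent replicates). Of 8 epithelial markers, 6 exceeded 1 FPKM in every library, among them EPCAM, KRT8, KRT18 and KRT19, whereas VIL1 and CEACAM5 were under 1 FPKM in every library. Of 8 markers of immune, stromal and endothelial cells, PTPRC, CD3E, COL1A2, PECAM1 and VWF were under 1 FPKM in all 12 libraries. The summed level of those 8 genes was 5.29 to 5.96 FPKM at 0 h and 21.15 to 27.31 FPKM at 24 h. CD68, COL1A1 and ACTA2 were called higher at 24 h (log2 fold changes of 2.04, 1.59 and 1.84), and their part in the results at 24 h was not tested.

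At 24 h in 1% O2, 5 of the 6 members were called higher than at 0 h and none lower. BNIP3L rose 16.9-fold in mean FPKM, BNIP3P1 10.8-fold, BNIP3 10.4-fold, FAM162A 7.41-fold and PINK1 5.82-fold. FUNDC1 was the exception, with a mean at 24 h that was 0.797 of that at 0 h. Over all genes tested, 18.3% were called at 24 h against 0 h, 8.86% higher and 9.4% lower. The median log2 fold change of the 6 members was 3.09, against -0.05 over all genes tested. All 3 libraries at 24 h lay above all 3 at 0 h for 5 members, against 27.7% of all genes, and below them for 1 member, FUNDC1, against 32.4% of all genes. At 1 h and 2 h no member was called.

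**Figure D1:**
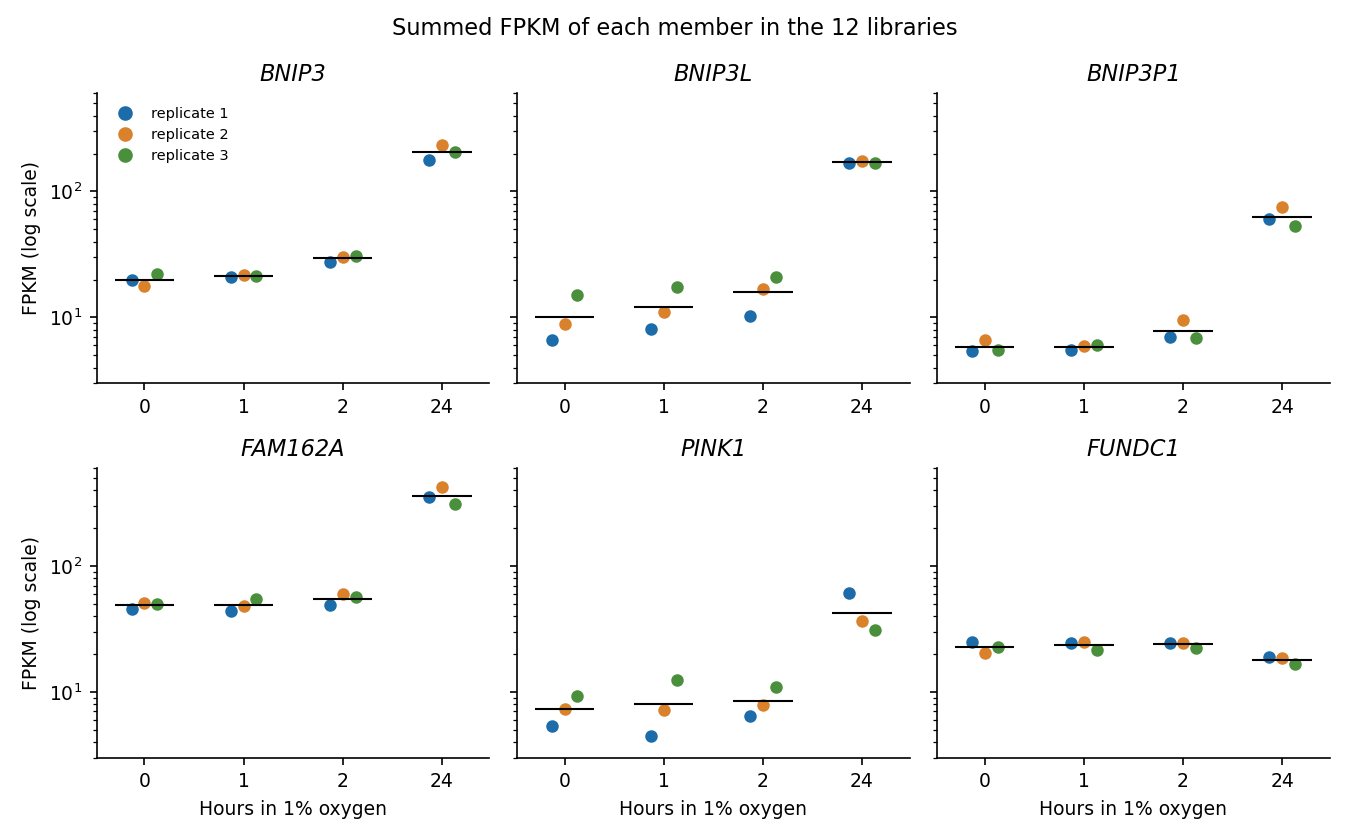
Summed FPKM (log axis) of each gene in every library by hours in 1% oxygen, with points coloured by replicate number and bars at the mean of 3 libraries. The points of BNIP3, BNIP3L, BNIP3P1, FAM162A and PINK1 at 24 h lie above all those at 0, 1 and 2 h, and those of FUNDC1 at 24 h lie below them.

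BNIP3, an outer-membrane receptor with a BH3-like region, was at 19.6, 17.8 and 22.0 FPKM in the 3 libraries at 0 h. The corresponding values were 21.1, 21.5 and 21.5 FPKM at 1 h, and 27.7, 30.4 and 30.6 FPKM at 2 h. At 24 h they were 177, 235 and 206 FPKM. BNIP3 was thus within its 0 h range at 1 h, above every 0 h library in all 3 libraries at 2 h, and far above them at 24 h. The log2 fold change at 24 h was 3.34 (SE 0.113, 95% confidence interval 3.10 to 3.59, limma adjusted p = 6.61e-09), the 35th largest increase of the 17091 genes. At 2 h the log2 fold change was 0.57 (95% confidence interval 0.32 to 0.81), with an unadjusted p of 0.000284 and a limma adjusted p of 0.0687. With the replicate number as a block, the 95% confidence interval was 0.34 to 0.80 (SE 0.103, limma adjusted p = 0.0376). In both fits the change missed the threshold on size and that on p, and it was not called.

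BNIP3L, the paralogue known for clearing mitochondria from maturing red blood cells, lies at chr8:26240570-26363152 on the plus strand (GRCh37) and varied more between replicates than BNIP3 at 0, 1 and 2 h. Its level was 6.63, 8.87 and 15.0 FPKM at 0 h and 8.14, 11.0 and 17.4 FPKM at 1 h. At 2 h it was 10.2, 16.8 and 21.0 FPKM. The same order of replicates, with replicate 3 highest and replicate 1 lowest, was present at 0, 1 and 2 h, and the ranges of these time points overlapped. At 24 h the 3 libraries were close together, at 169, 176 and 170 FPKM. The log2 fold change at 24 h was 4.09 (SE 0.318, 95% confidence interval 3.40 to 4.78, limma adjusted p = 1.31e-06), the 16th largest increase of all genes tested. At 2 h it was 0.65 with a 95% confidence interval of -0.04 to 1.34 (limma adjusted p = 0.361). Each replicate was higher at 2 h than the same-numbered replicate at 0 h. With the replicate number as a block, the 95% confidence interval of the same change was 0.22 to 1.07 (SE 0.190, unadjusted p = 0.00675, limma adjusted p = 0.107), and it was not called in either fit.

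The pseudogene BNIP3P1 was at 5.41, 6.62 and 5.47 FPKM at 0 h and at 7.02, 9.54 and 6.89 FPKM at 2 h. At 24 h it was at 60.8, 74.7 and 53.1 FPKM, nearly all of it on ENST00000550043. As for BNIP3, the 2 h libraries lay above all 0 h libraries. The log2 fold change was 0.38 at 2 h (unadjusted p = 0.0278, limma adjusted p = 0.274, or 0.0987 with the replicate number as a block). At 24 h it was 3.31 (SE 0.153, limma adjusted p = 6.04e-08). The changes of BNIP3 and BNIP3P1 at 24 h therefore had nearly the same size, and the part of reads shared between the copies was not tested.

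FAM162A was the most abundant member at every time point. It was at 46.0, 50.8 and 49.6 FPKM at 0 h and at 48.9, 59.7 and 56.9 FPKM at 2 h, ranges that overlap, though each replicate was higher at 2 h than the same-numbered one at 0 h. At 24 h FAM162A reached 351, 423 and 312 FPKM. The log2 fold change was 0.17 at 2 h (limma adjusted p = 0.542, or 0.403 with the replicate number as a block). At 24 h it was 2.87 (SE 0.126, limma adjusted p = 4.08e-08).

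PINK1, the kinase that marks depolarised mitochondria, was at 5.41, 7.33 and 9.29 FPKM at 0 h. It was at 4.46, 7.13 and 12.5 FPKM at 1 h and at 6.41, 7.83 and 11.0 FPKM at 2 h, again with replicate 3 highest and replicate 1 lowest. Each replicate was higher at 2 h than the same-numbered one at 0 h. The log2 fold change at 2 h was 0.18 (limma adjusted p = 0.84, or 0.798 with the replicate number as a block). The order of replicates was the opposite at 24 h, with 60.9, 36.6 and 30.9 FPKM in replicates 1, 2 and 3. All 3 values at 24 h exceeded every earlier value, but they differed from each other by more than those of any other member on a relative scale. The log2 fold change at 24 h was 2.43 (SE 0.344, 95% confidence interval 1.68 to 3.18, limma adjusted p = 9.04e-05). Without replicate 1 at 24 h it was 2.15.

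FUNDC1, a receptor whose LC3 binding is controlled by phosphorylation, was at 24.9, 20.5 and 22.7 FPKM at 0 h. It was at 24.6, 24.8 and 21.6 FPKM at 1 h and at 24.5, 24.6 and 22.5 FPKM at 2 h. At 24 h it was at 18.9, 18.7 and 16.7 FPKM. The 24 h libraries lay below all 9 earlier ones, with the highest at 24 h (18.9 FPKM) close to the lowest at 0 h (20.5 FPKM). The log2 fold change at 24 h against 0 h was -0.32 (SE 0.103, 95% confidence interval -0.54 to -0.09, limma adjusted p = 0.0199), which did not meet either threshold. Against 2 h it was -0.39 (limma adjusted p = 0.00733), which met the p threshold but not that on size.

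**Figure D2:**
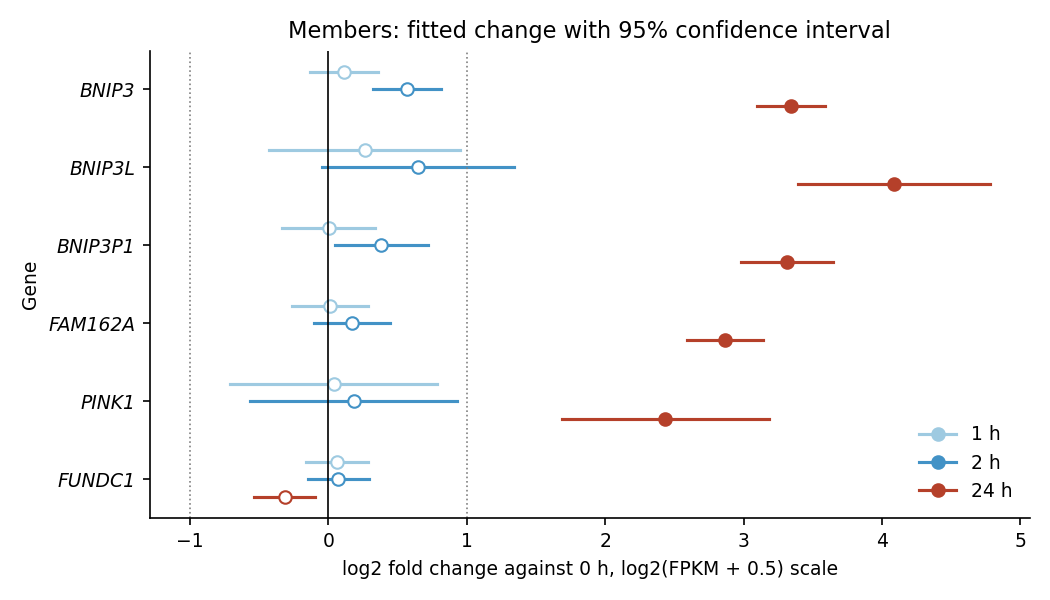
Fitted log2 fold change against 0 h (horizontal axis, log2(FPKM + 0.5) scale) of each gene at 1, 2 and 24 h, with bars for the 95% confidence interval and filled points for called changes. Only the 24 h points of BNIP3, BNIP3L, BNIP3P1, FAM162A and PINK1 are filled, and the interval of FUNDC1 at 24 h, from -0.54 to -0.09, lies below 0.

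The time course thus placed the called changes after 2 h. At 1 h against 0 h, 0 of 6 members were called by limma and 0 had an unadjusted p under 0.05. Over all genes, 0.00585% were called at 1 h (1 gene, RNVU1-16) and 780 had an unadjusted p under 0.05. At 2 h, 0 of 6 members were called and 2, BNIP3 and BNIP3P1, had an unadjusted p under 0.05, or 3, with BNIP3L, when the replicate number was a block. Over all genes, 0.0176% were called at 2 h (ERRFI1, MAFF and PIM1) and 2563 had an unadjusted p under 0.05 (3510 with the block). None of the 6 members lay above all 0 h libraries at 1 h, where 6.44% of all genes did, and 2 did at 2 h, where 12.2% of all genes did. From 2 h to 24 h, 5 members were called higher by limma, against 14.7% of all genes called and 7.45% called higher. In that comparison the log2 fold change was 2.77 for BNIP3, 3.44 for BNIP3L, 2.93 for BNIP3P1, 2.70 for FAM162A and 2.25 for PINK1. The comparisons with 0 h share the same 3 control libraries.

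Short transcripts, under 300 bases, made up 57.0% to 87.6% of the FPKM total in each library. Median-of-ratios scaling, which levels libraries on their median gene, had size factors of 0.963 to 1.013 and so changed the values little. When each library was rescaled to a sum of 1000000 (TPM), the median of all genes shifted by -0.56 at 1 h, -0.94 at 2 h and -0.78 at 24 h on the log2 scale. The split of called genes at 24 h then moved from 1514 higher and 1606 lower to 216 higher and 4028 lower. The 5 members called at 24 h remained called, at 2.31 (PINK1) to 3.95 (BNIP3L) above that median. FUNDC1 was 0.34 below the median under TPM (log2 fold change minus median of -0.34) and 0.27 below it as deposited (-0.27). At 2 h BNIP3 was 0.45 above the median under TPM and 0.58 above it as deposited, and BNIP3L was 0.57 and 0.66 above it.

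The order of the members by FPKM, a scale per transcript length, changed over the time course. At 0 h the order of means was FAM162A (48.8 ± 2.49 FPKM, SD, n = 3), FUNDC1 (22.7 ± 2.19 FPKM), BNIP3 (19.8 ± 2.12 FPKM), BNIP3L (10.2 ± 4.32 FPKM), PINK1 (7.34 ± 1.94 FPKM) and BNIP3P1 (5.83 ± 0.685 FPKM). Of neighbours in that order, FUNDC1 and BNIP3 overlapped, as did BNIP3L and PINK1 and also PINK1 and BNIP3P1. At 2 h BNIP3 (mean 29.55 FPKM) was already above FUNDC1 (23.86 FPKM), with no overlap, and the order was otherwise as at 0 h. At 24 h the order was FAM162A (362 ± 56.8 FPKM, SD, n = 3), BNIP3 (206 ± 29.1 FPKM), BNIP3L (172 ± 3.98 FPKM), BNIP3P1 (62.8 ± 10.9 FPKM), PINK1 (42.7 ± 15.9 FPKM) and FUNDC1 (18.1 ± 1.20 FPKM). Only BNIP3P1 and PINK1 overlapped as neighbours at 24 h. From 0 h to 24 h FUNDC1 thus went from the second highest mean to the lowest, with a log2 fold change of -0.32 in its own level.

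Ratios within a library do not depend on scaling between libraries. The log2 ratio of BNIP3 over BNIP3L was 1.57, 1.01 and 0.56 at 0 h and 0.07, 0.42 and 0.28 at 24 h. All 3 ratios at 24 h lay below all 3 at 0 h, and the means were 1.04 ± 0.506 and 0.26 ± 0.176 (SD, n = 3), so the levels of the receptors were closer in these libraries at 24 h. BNIP3 over FAM162A moved the other way, from -1.30 ± 0.183 at 0 h to -0.81 ± 0.200 at 24 h (SD, n = 3), with no overlap. At 2 h this ratio was -0.822, -0.972 and -0.895, already above all 3 at 0 h and overlapping those at 24 h. PINK1 over FUNDC1 went from -1.66 ± 0.480 to 1.18 ± 0.442 (SD, n = 3), also with no overlap, so that PINK1 was the lower of the pair in all 3 libraries at 0 h and the higher in all 3 at 24 h. In each of these 3 pairs the two-sided exact permutation p was 0.1, the smallest that 3 against 3 libraries can give, and 0.133 after adjustment over the 4 pairs compared. BNIP3 over BNIP3P1 had means of 1.77 ± 0.303 at 0 h and 1.72 ± 0.216 at 24 h (SD, n = 3), with overlapping libraries and an exact permutation p of 0.9.

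**Figure D3:**
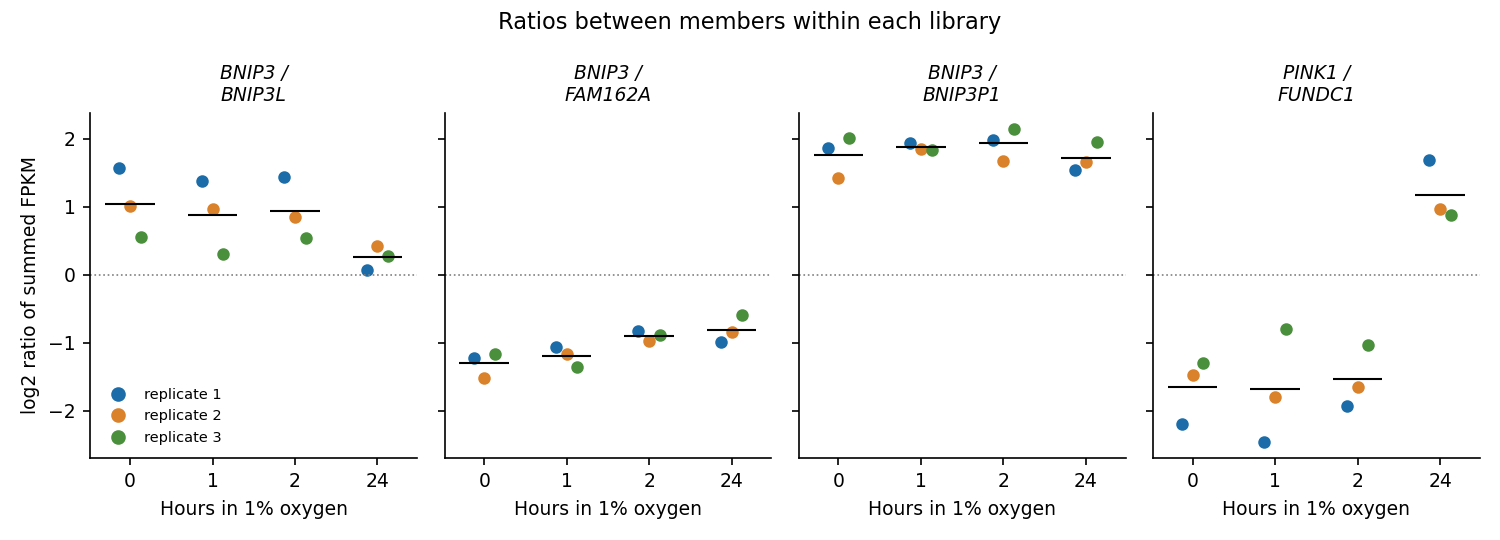
Log2 ratio of the summed FPKM of a pair of genes (vertical axis) in each library by hours in 1% oxygen, with points coloured by replicate number and bars at the mean of 3 libraries. At 24 h PINK1 over FUNDC1 lies above 0 in all 3 libraries and below 0 in every earlier library, whereas BNIP3 over BNIP3P1 stays near 1.7 to 1.9 in the mean throughout.

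The members have 26 transcript models, of which 18 exceeded 0.5 FPKM in at least 3 libraries and were tested, 1 was listed at 0 in every library (a FAM162A model) and the other 7 were below the filter. At 24 h against 0 h, 12 of the 18 were called higher by limma, none lower and 6 were not called, whereas 11.8% of 64396 transcripts tested were called. Every tested transcript of BNIP3 (3), BNIP3P1 (1) and FAM162A (3) was called higher, with 4 of 6 of BNIP3L, 1 of 3 of PINK1 and 0 of 2 of FUNDC1. A model that passed the filter only through its 24 h libraries had to be higher there, as for 1 model of BNIP3L (ENST00000523949) that was listed at 0 in all 3 libraries at 0 h.

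BNIP3 was carried by 2 models that match ENST00000368636 and differ in length. The shorter, of 1160 bases, held 77.7% ± 0.584 of BNIP3 FPKM at 0 h and 80.7% ± 0.799 at 24 h (SD, n = 3). Its share was above all 0 h values in every 24 h library, a difference of 3.05 percentage points with an exact permutation p of 0.1. The share first moved the other way, to 75.1% ± 1.28 at 1 h and 74.6% ± 1.87 at 2 h (SD, n = 3), below all 0 h values in every library. The longer model, of 2955 bases, went from 4.22 ± 0.349 FPKM at 0 h to 36.9 ± 5.96 FPKM at 24 h (SD, n = 3), a log2 fold change of 2.98 (limma adjusted p = 1.57e-06). The third model, ENST00000540159, stayed under 4 FPKM in all libraries and held 1.42% of BNIP3 FPKM at 24 h.

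BNIP3L had more tested models, 6, than any other member. The leading model, ENST00000380629 (3610 bases), was at 3.67, 4.07 and 7.22 FPKM at 0 h and at 74.2, 86.6 and 105 FPKM at 24 h, a log2 fold change of 4.06 (SE 0.324, limma adjusted p = 1.85e-05). Its share of BNIP3L FPKM was 49.8% ± 4.95 at 0 h, 71.6% ± 14.3 at 2 h and 51.6% ± 9.13 at 24 h (SD, n = 3), and 0 h and 24 h overlapped (exact permutation p = 0.8). The shorter ENST00000520409 was called at 3.97 (SE 0.789, limma adjusted p = 0.00366) and ENST00000518611 at 3.93 (SE 0.672, limma adjusted p = 0.00149). The call of ENST00000520409 was lost without replicate 1 or 2 at 0 h, without replicate 1 or 3 at 24 h and with a pseudocount of 0.1 (log2 fold changes of 3.79, 3.72, 3.71, 4.01 and 4.30), and that of ENST00000518611 with a pseudocount of 0.1. ENST00000523515 was at 29.2, 30.9 and 3.36 FPKM at 24 h, and with replicate 3 so far below the others it was not called (log2 fold change 3.47, SE 0.990, limma adjusted p = 0.0234). Without that library it was called at 4.46 (limma adjusted p = 0.00701). The nonsense-mediated decay transcript ENST00000520077 was under 4 FPKM in every library and was not called (limma adjusted p = 0.339). The summed level of BNIP3L at 24 h differed little between replicates while its models did, so the division of BNIP3L among models is less certain than its sum.

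PINK1 was carried by ENST00000321556 (2660 bases), at 3.39, 5.11 and 6.83 FPKM at 0 h and at 47.3, 30.1 and 27.8 FPKM at 24 h. Its log2 fold change was 2.67 (SE 0.368, limma adjusted p = 0.000411). It held 68.7% ± 5.56 of PINK1 FPKM at 0 h and 83.3% ± 6.21 at 24 h (SD, n = 3), but this total includes a model on the opposite strand. Among sense models alone its share was 79.7%, 85.0% and 83.0% at 0 h and 78.3%, 83.1% and 91.1% at 24 h, which overlap (exact permutation p = 0.8). The model on the opposite strand that carries the PINK1 name was at 1.16, 1.31 and 1.06 FPKM at 0 h and at 0.419, 0.353 and 0.352 FPKM at 24 h, a log2 fold change of -0.94 (limma adjusted p = 0.00881) that misses the size threshold and was called at -1.42 with a pseudocount of 0.1. It held 16.9% of PINK1 FPKM at 0 h and 0.932% at 24 h. ENST00000400490 of PINK1 (1658 bases) held 14.2% ± 1.90 at 0 h and 14.3% ± 6.24 at 24 h (SD, n = 3). It was at 0.865, 0.894 and 1.33 FPKM at 0 h and at 12.3, 5.42 and 2.41 FPKM at 24 h, higher in all 3 libraries but not called (log2 fold change 1.99, SE 0.747, limma adjusted p = 0.0700). With sense models alone, PINK1 went from 6.17 ± 1.99 FPKM to 42.4 ± 15.9 FPKM (SD, n = 3).

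The annotated antisense gene PINK1-AS (chr1:20969150-20978686, minus strand), a long noncoding RNA that overlaps PINK1, moved against it. PINK1-AS was at 4.46, 3.95 and 3.12 FPKM at 0 h and at 3.83, 2.82 and 3.04 FPKM at 2 h. At 24 h it was at 0.00225, 0.674 and 0.00595 FPKM, below every earlier library. PINK1-AS fell by 2.69 on the log2(FPKM + 0.5) scale (SE 0.305, limma adjusted p = 1.81e-05). The libraries were strand-specific, and the authors set strand specificity when Cufflinks assembled the models of each sample.

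**Figure D4:**
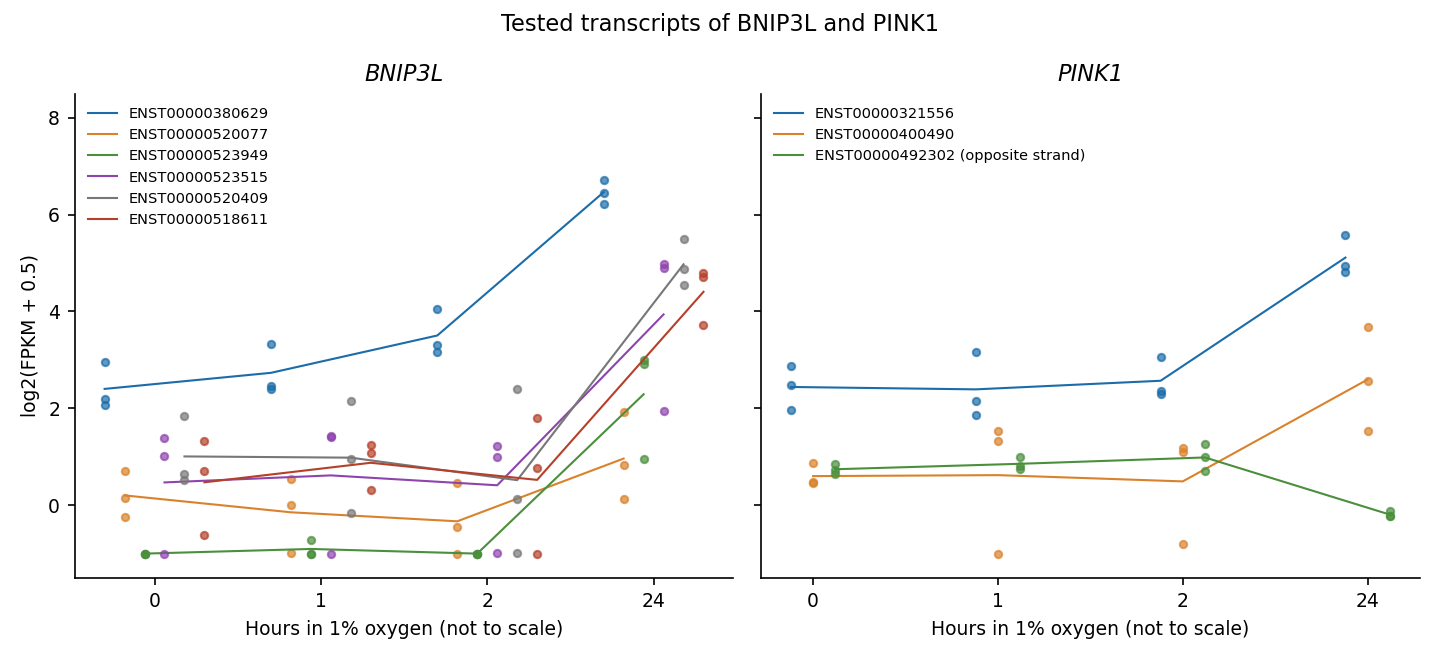
Log2(FPKM + 0.5) of each tested transcript model of BNIP3L and PINK1 in every library (points) by hours in 1% oxygen, with lines through the mean of 3 libraries. ENST00000380629 of BNIP3L and ENST00000321556 of PINK1 are the highest models at each time point, and the opposite-strand PINK1 model is lower at 24 h, at 0.352 to 0.419 FPKM.

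FUNDC1 was carried mainly by a model of 1029 bases that shares splice junctions with ENST00000378045 but does not match it in full. It was at 22.6, 19.6 and 20.1 FPKM at 0 h and at 18.3, 17.2 and 13.1 FPKM at 24 h, with all 24 h libraries below those at 0 h (log2 fold change -0.36, limma adjusted p = 0.106). The share of FUNDC1 FPKM on this model was 91.5% ± 3.74 in the 0 h libraries, 83.3% ± 3.24 after 1 h, 82.8% ± 7.47 after 2 h and 89.2% ± 9.44 after 24 h (SD, n = 3). The model that matches ENST00000378045 held most of the rest, 15.9% at 1 h and 16.9% at 2 h, and was at 1.96 ± 0.933 FPKM at 0 h and 1.75 ± 1.70 FPKM at 24 h (SD, n = 3). In FAM162A, the leading ENST00000232125 (801 bases) held 73.1% ± 2.53 of FPKM at 0 h and 71.3% ± 1.64 at 24 h (SD, n = 3), overlapping shares (exact permutation p = 0.4). ENST00000469967 of FAM162A went from 10.6 ± 0.984 FPKM to 86.3 ± 11.4 FPKM (SD, n = 3), a log2 fold change of 2.97 (limma adjusted p = 3.13e-06).

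On the deposited scale the rest of the mitophagy pathway was called about as often as all genes. Of 56 other genes in 9 lists of receptors, adaptors and regulators, 53 were tested, and at 24 h against 0 h 5 were called higher, 4 lower and 44 not called by limma. This is 17.0% of the genes tested, against 18.3% over all genes, and the median log2 fold change was 0.12. None of the 53 was called at 1 h or 2 h. With TPM, 1 of 52 pathway genes was called higher and 10 were called lower, 21.2% in all, against 28.7% over all genes on that scale (1.46% higher and 27.2% lower). Each of 12 well known hypoxia-inducible genes, from CA9 and VEGFA to NDRG1, was called higher at 24 h, with a median log2 fold change of 3.35, beside 3.09 for the 6 members. Both sets were chosen with earlier results of these data known, so these values describe them and are no independent check.

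Among 7 other receptors, FKBP8, an outer-membrane immunophilin that binds LC3, was called higher, at 69.2 ± 7.55 FPKM at 0 h and 152 ± 11.5 FPKM at 24 h (SD, n = 3; log2 fold change 1.13, limma adjusted p = 6.23e-05). The inner-membrane receptor PHB2 had a log2 fold change of -0.55 and BCL2L13 one of 0.41, neither called. Of 5 adaptors that read ubiquitin and TBK1, a kinase that phosphorylates them, OPTN (optineurin) had the largest change of the pathway genes, from 5.64 ± 1.44 to 32.2 ± 7.70 FPKM (SD, n = 3; log2 fold change 2.41, limma adjusted p = 3.60e-05). The adaptor NBR1 was also called higher (log2 fold change 1.28), and SQSTM1, which encodes p62, was not, at 154 ± 16.3 FPKM at 0 h and 169 ± 13.2 FPKM at 24 h (SD, n = 3). Of the 5 LC3 and GABARAP genes tested, GABARAPL1 was called higher (13.6 ± 1.14 to 41.5 ± 3.31 FPKM, SD, n = 3; log2 fold change 1.58), and the other 4 had log2 fold changes of 0.59 to 0.78. Of 4 genes of the initiation complex, the kinase ULK1 was called higher (3.23 ± 0.0913 to 9.05 ± 0.699 FPKM, SD, n = 3; log2 fold change 1.35). The calls of FKBP8, NBR1, GABARAPL1 and ULK1 were lost under TPM, where their log2 fold changes were 0.26, 0.42, 0.71 and 0.51, and that of OPTN was not. With median-of-ratios scaling the calls of these genes were kept. Relative to the median of all genes, these 4 genes were 1.04, 1.20, 1.49 and 1.29 higher under TPM and 1.18, 1.33, 1.63 and 1.40 higher as deposited.

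Of 13 partners of PINK1 and Parkin tested, none was called higher and 3 were called lower, with a median log2 fold change of -0.57. These 3 are 23.1% of the list, beside 18.3% of all genes called in either direction and 9.4% called lower, and the calls of TOMM22 and PARL depended on the processing. TOMM40, the pore through which PINK1 enters mitochondria, went from 127 ± 14.0 to 33.0 ± 6.60 FPKM (SD, n = 3; log2 fold change -1.95, limma adjusted p = 2.29e-06). PARL, the inner-membrane protease that cleaves PINK1 in healthy mitochondria, went from 41.5 ± 1.47 to 19.6 ± 0.905 FPKM (SD, n = 3; log2 fold change -1.06, limma adjusted p = 1.23e-06). TOMM22 was called lower at -1.02, just past the threshold, and was not called with median-of-ratios scaling (-0.99), without replicate 1 at 0 h (-0.96) or without replicate 3 at 24 h (-0.91). PARL was not called when only transcripts classed as matching an annotated one, though their ends may differ, were summed (-0.83). PARK2, the gene for Parkin itself, was at 0.0239 ± 0.0362 FPKM at 0 h and 0.219 ± 0.0912 FPKM at 24 h (SD, n = 3) and was not tested. Of 5 regulators of FUNDC1, PGAM5, the phosphatase that acts on FUNDC1, was called lower (68.2 ± 1.59 to 23.6 ± 5.33 FPKM, SD, n = 3; log2 fold change -1.53, limma adjusted p = 9.49e-06), and the ligase MARCH5 was not (log2 fold change 0.14).

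None of 7 partners and turnover factors of BNIP3 and BNIP3L was called. Over all genes tested 18.3% were called at 24 h, and lists as short as those here can hold no called gene at that share. FBXL4 and PPTC7, which limit the amounts of both receptor proteins, had log2 fold changes of 0.12 and 0.39. OPA1 and DNM1L, which act in mitochondrial fusion and fission, had log2 fold changes of -0.34 each. None of the 3 mitochondrial deubiquitinases was called, with log2 fold changes of 0.52 for USP30, 0.004 for USP8 and -0.76 for USP15. That of USP15 met the p threshold (limma adjusted p = 0.000594) but not that on size. The 3 relatives by name, BNIP1, BNIP2 and BNIPL, were not called either, at -0.28, -0.33 and 0.96. BNIPL was near the floor, at 0.148 ± 0.0118 FPKM at 0 h and 0.766 ± 0.132 FPKM at 24 h (SD, n = 3), without overlap. Its change met the p threshold (limma adjusted p = 0.00171) but not that on size, on a scale that understates changes of low genes.

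**Figure D5:**
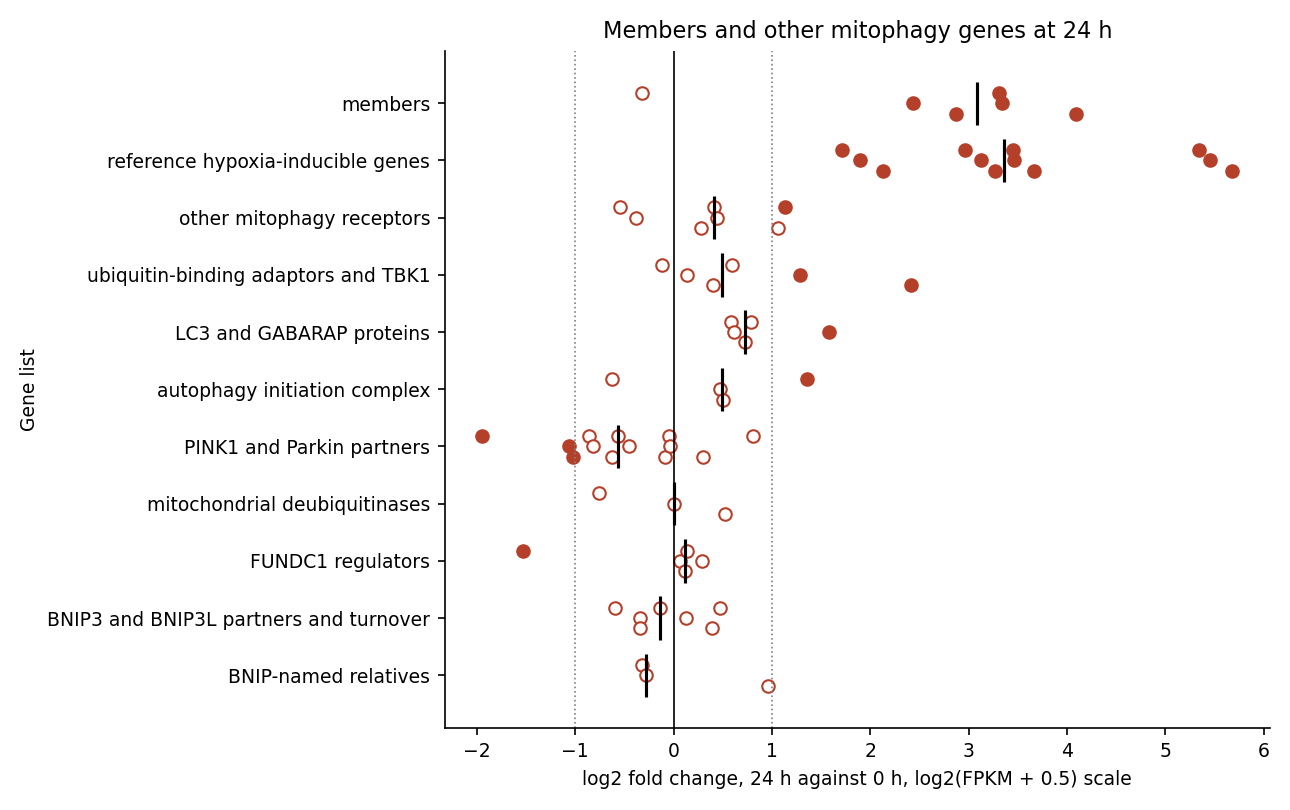
Log2 fold change at 24 h against 0 h (horizontal axis, log2(FPKM + 0.5) scale) of each tested gene, by list, with filled points for called genes, bars at the list median and dotted lines at -1 and 1. The members other than FUNDC1 lie at 2.43 to 4.09, in the range of the hypoxia-inducible genes, a list chosen with earlier results of these data known. Of the 53 other pathway genes 17.0% are filled points, beside 18.3% of all genes tested.

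Genes whose pattern was most like BNIP3 and BNIP3L were taken by Pearson's r of log2(FPKM + 0.5) over the 12 libraries among 10434 genes, a measure led by the step between 24 h and the earlier time points. For BNIP3 they were INSIG2 (r = 0.99569), MXI1 (r = 0.99523), TFE3 (r = 0.99477), EGLN1 (r = 0.99414) and STC2 (r = 0.99413). INSIG2, for example, had a mean of 8.44 FPKM at 0 h and 99.8 FPKM at 24 h. For BNIP3L they were HLA-E (r = 0.99383), GLRX (r = 0.99251), PAPSS2 (r = 0.99236), MKNK2 (r = 0.99219) and NDRG1 (r = 0.99174). The fold changes of these 10 genes at 24 h ranged widely on the log2 scale, from 1.11 for HLA-E to 5.34 for NDRG1, so a like pattern did not mean a like size of change.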

How the data were processed

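Poly(A) RNA of HCT116 cells at 0, 1, 2 and 24 h in 1% O2 was sequenced as 12 strand-specific libraries, 3 per time point, grouped by the sample titles. Per the study's methods and the labels, the authors processed reads with CASAVA 1.8.2, aligned them to hg19, assembled each sample with Cufflinks, merged the models with Ensembl and deposited FPKM per transcript and library; a normalisation between libraries is not given in the sources used here. The unit is an estimate without counts, so no counting interval could be given. The files do not give the depth per library, and the read totals of the study's methods are not repeated here.

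FPKM was summed per gene name over all class codes; 4298 transcripts without a gene name were left out. Genes and, separately, transcripts above 0.5 FPKM in at least 3 libraries were fitted with limma 3.58.1 (R 4.3.3, trend, all 12 libraries, time point as the only term) on log2(FPKM + 0.5). Fold changes on this scale understate those of low genes. Calls needed a log2 fold change beyond 1 in either direction and an adjusted p below 0.01. For shares and ratios the two-sided exact permutation test was used. The fit was tested on simulated data. Sequences came from RefSeq (GRCh38.p14) and from GENCODE 44 on GRCh37, and the BNIP3 and BNIP3P1 transcripts were aligned with Biopython 1.88. Tables and figures used Python 3.11.15, numpy 2.4.6, pandas 2.3.3 and matplotlib 3.10.9.

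Named were the 6 members, PINK1-AS, listed pathway genes called at 24 h (at most 8 a list) or needed to describe a count, the 5 genes most like BNIP3 and BNIP3L, and member transcripts with at least 10% of their gene's FPKM at a time point. ENST00000540159, ENST00000520077 and ENST00000523949, the cell type markers called at 24 h and the genes called at 1 h and 2 h were named after their values were seen. The sample titles number the replicates but do not say that equal numbers share a culture or day. Deviations of same-numbered libraries from their time point means correlated above 0.1 in all 3 pairs for 0 h with 2 h (0.153 to 0.324) and for 1 h with 2 h, in 2 of 3 for 0 h with 1 h, and in 2 of the 9 pairs with 24 h, so the numbers were taken to pair 0 h with 2 h only among the comparisons made. The members and gene lists were chosen with earlier results of these data known. The alternatives tried were other pseudocounts, filters, scalings, transcript classes, a fit of 6 libraries, a replicate block and leaving out each library.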

Additional observations from a re-analysis of the deposited data

Results flagged for a closer look

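In 5 members the effect of 24 h in 1% O2 differed from that of 2 h, both against 0 h, by the limma test of 24 h against 2 h. The difference on the log2 scale was 2.77 for BNIP3 (limma adjusted p = 3.65e-08), 3.44 for BNIP3L (limma adjusted p = 5.46e-06) and 2.93 for BNIP3P1 (limma adjusted p = 1.80e-07). It was 2.70 for FAM162A (limma adjusted p = 7.72e-08) and 2.25 for PINK1 (limma adjusted p = 0.000193). For each of these genes all 3 libraries at 24 h lay above all 3 at 2 h.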

How the results depend on the processing

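The 5 calls of members at 24 h against 0 h and against 2 h were kept under all 24 alternatives, and FUNDC1 was called under none. Between the alternatives the log2 fold change at 24 h against 0 h ran from 2.45 to 3.45 for BNIP3, 3.17 to 4.39 for BNIP3L, 2.37 to 3.43 for BNIP3P1, 1.99 to 2.97 for FAM162A, 1.53 to 2.67 for PINK1 and -1.12 to -0.17 for FUNDC1, whose adjusted p ran from 0.0101 to 0.786. Member transcripts called ran from 10 to 12 and pathway genes called from 8 to 11.

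At 1 h the number of genes called was 0 without a filter, with transcripts of at least 300 bases, in the fit of 6 libraries and with the replicate block, 32 under TPM, and 0 to 1 without single replicates. At 2 h it was 6 with a pseudocount of 0.1, 0 without a filter and in the fit of 6 libraries, 505 under TPM, 7 with transcripts of at least 300 bases, 5 with kept transcripts and class codes, and 0 to 6 without single replicates. At 24 h against 2 h it was 642 under TPM. The log2 fold changes under TPM turned negative at 1 h for BNIP3 (-0.49), BNIP3L (-0.33), BNIP3P1 (-0.53), FAM162A (-0.61), FUNDC1 (-0.54) and PINK1 (-0.52). They did so at 2 h for BNIP3 (-0.48), BNIP3L (-0.37), BNIP3P1 (-0.55), FAM162A (-0.90), FUNDC1 (-0.96) and PINK1 (-0.76), beside the shift of the median of all genes given above, and none was called.

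Without single replicates the log2 fold change at 1 h ran from -0.020 to 0.57 for BNIP3L, -0.046 to 0.089 for BNIP3P1, -0.074 to 0.086 for FAM162A, -0.0097 to 0.13 for FUNDC1 and -0.32 to 0.37 for PINK1, and that of PINK1 at 2 h from -0.017 to 0.36. The FUNDC1 model that matches ENST00000378045 ran from -0.98 to 0.29 at 24 h.

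The leading share of BNIP3L changed by -2.83 points with kept transcripts only and by -3.23 to 5.65 points without single replicates, that of BNIP3P1 by -0.772 to 0.0065 points and that of FUNDC1 by -6.19 to 2.92 points. Leaving out the opposite-strand model, an alternative chosen after seeing the data, took the change of the leading share of PINK1 from 14.7 to 1.58 points. The log2 ratio of BNIP3 over BNIP3P1 changed by -0.216 to 0.075. Apart from the model left out, the cause of these changes was not tested.

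Deviations of same-numbered libraries correlated at 0.0675 to 0.431 among 0, 1 and 2 h (8 of 9 pairs above 0.1) and at -0.0746 to 0.202 with 24 h (2 of 9 pairs above 0.1). With the replicate block 4 genes were called at 2 h and 3171 genes were called at 24 h, against 3 and 3120 without it, with 3108 shared at 24 h, and no member call changed. The lack of counts limits what can be said of PARK2, PINK1-AS and other features near 0.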
